A study of Rattus norvegicus with 6 samples.

Results

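Choroid plexuses of the late fetus were compared with those of the adult rat, gene by gene, on Affymetrix Rat 230 2.0 arrays. The E19 group held 2 pools of lateral ventricle choroid plexuses from Sprague-Dawley fetuses at embryonic day 19, and the adult group held 2 pools from adult Sprague-Dawley rats, which were males by the study's methods. The labels give no treatment and no altered genotype for either group, so that age is the labelled difference, and the sex of the fetuses is not given. Each pool mixed the plexuses of several animals, fewer in the adult, and was hybridized to 1 array. Both pools of postnatal day 2 (P2) entered the shared estimate of the spread and the choice of the probe set that represents a gene. They were not part of the contrast, and their values are given beside some genes. Control probe sets were left out, and a probe set entered the comparison when its mean intensity reached 100 units at E19 or in the adult, which held for 17501 of 31099 probe sets. A gene was represented by its brightest probe set that the annotation matches to no other gene. Binding of probe sets to related transcripts was not tested. Of 14217 genes 10207 were tested, 10122 of them outside the junction, transporter and detoxifying enzyme genes that the study listed.

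The choroid plexus is a fold of the ventricular wall in which a single layer of ciliated, secretory epithelium covers a stroma of fibroblasts, macrophages and fenestrated capillaries. The epithelium makes most of the cerebrospinal fluid (CSF) by moving sodium, chloride, bicarbonate and water from blood to ventricle, and its tight junctions form the barrier between blood and CSF. It is specified early in the embryo and goes on growing in surface and in secretory rate after birth, while the stroma and its vessels are remodelled. Whole plexuses were used, so each intensity is a sum over all these cells.

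The label of the tissue was borne out at both stages by the defining genes of the epithelium. Ttr, which codes for transthyretin, the thyroxine carrier of CSF, had intensities of 12750 and 13345 units in the E19 pools and 14847 and 11640 units in the adult pools. Aqp1, the apical water channel, had 9582 and 9550 units at E19 and 8379 and 8706 units in the adult. Neither gene passed the test, with adjusted p values of 0.95 and 0.14. The array medians were 125 and 126 units at E19 and 106 and 100.4 units in the adult, and 53.3 and 53.5% of probe sets reached 100 units at E19 against 51.0 and 50% in the adult. The ratio of the 3′ to the 5′ probe set of beta-actin, which is higher where RNA is shorter, was 2.95 and 2.93 at E19 and 4.58 and 5.34 in the adult, while that of GAPDH ranged from 1.12 to 1.23 on all arrays. Its part in the differences below was not tested. The sex-linked transcripts differed too, and of 6 listed ones 3 had a probe set. Xist, made from the inactive X chromosome of females, had 926 and 1623 units at E19 and 3.35 and 0.934 units in the male adult pools, and the Y-linked Uty (1.71-fold higher at E19) and Eif2s3y (2.88-fold lower, a call lost without E19 pool 2 or either adult pool) were above 100 units in all 4 pools. Females were thus present in both E19 pools, and a difference between the sexes cannot be told apart from one of age.

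Most genes differed between the stages. An adjusted p under 0.05 was reached by 9743 of the 17501 probe sets, or 55.7%, and by 5861 of the 10207 tested genes, or 57.4%, with 3231 (31.7%) higher and 2630 (25.8%) lower at E19. Most differences were small: the median absolute log2 difference was 0.46, and the median over all tested genes was 0.04. At least 2-fold higher at E19 were 1148 called genes and at least 2-fold lower 697, whereas at 8-fold the counts were 113 and 41. Large changes were thus more often fetal than adult. In 735 of the genes called higher at E19 both adult pools were under 100 units, and in 209 of those called lower both E19 pools were, so that only a lower bound of the fold change can be given for them, set against 100 units. The 4 arrays did not overlap between stages for 83.3% of the tested genes. Centring each array on its median moved the log2 differences by -0.10, and the probe set calls then split into 4656 higher and 5197 lower, against 5395 and 4348 as deposited. Counts in either direction near the background of 31.7 and 25.8% therefore say little about a list.

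**Figure D1:**
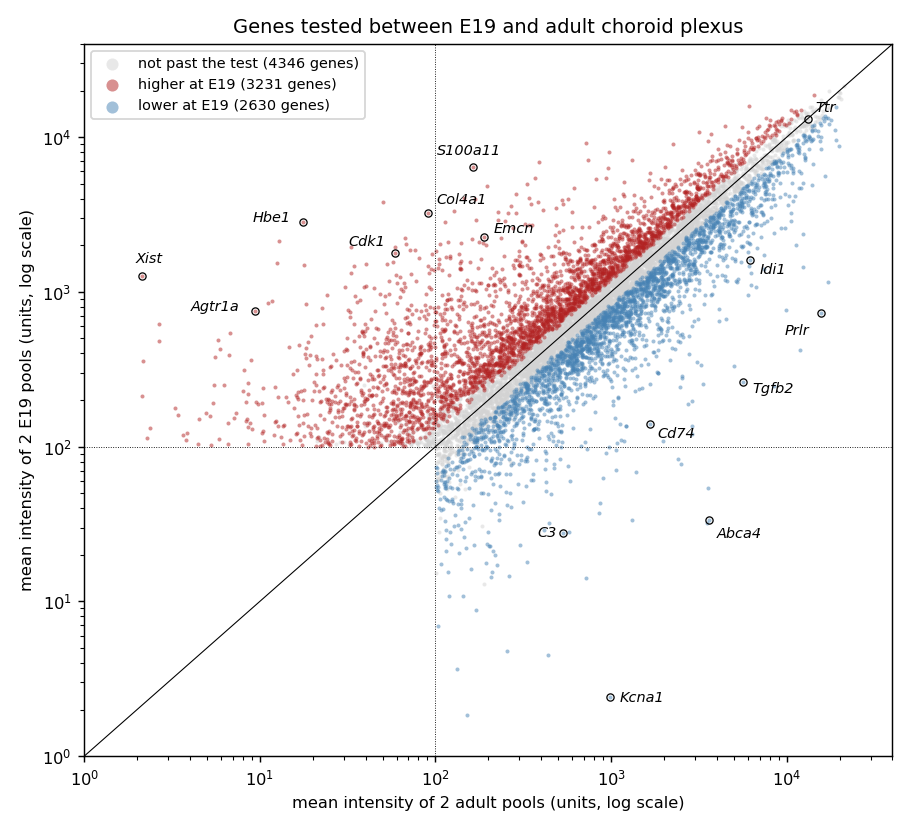
Mean intensity of each of 10207 tested genes in the 2 adult pools (horizontal axis, units, log scale) and in the 2 E19 pools (vertical axis, units, log scale), coloured by the limma call, with the line of equal intensity and dotted lines at 100 units. The cloud is wider above the line (3231 genes higher at E19) at low adult intensity than below it (2630 genes lower), while Ttr lies on the line.

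The 15 largest increases at E19 were spread over many kinds of gene, from matrix to growth control. S100a11, a small calcium-binding protein, had 5637 and 7113 units in the E19 pools against 187 and 141 units in the adult pools. Both E19 pools lay far above both adult pools, and the difference was 39.0-fold (log2 5.28 ± 0.18 SE, limma adjusted p = 7.5e-05). Col14a1, a collagen that binds the surface of fibrils, fell from 3927 and 3727 units to 58.8 and 41.2 units, at least 38.3-fold. Of the same order were Col4a1, a chain of basement membrane collagen (at least 32.4-fold), Grb10, an imprinted adaptor that restrains insulin and IGF signalling (29.8-fold), and Gpc3, a proteoglycan that restrains growth (25.6-fold). Cks2, a partner of the cyclin-dependent kinases, was at least 22.2-fold higher. The 15 largest increases also held genes best known from other organs. Crygb, which codes for a crystallin of the eye lens, was at least 21.2-fold higher. It had 2194 and 2045 units at E19 and 1.87 and 23.9 units in the adult. These values come from its 1 tested probe set, whose binding to transcripts of related crystallins was not tested. Tnnc1, the troponin C of slow and cardiac muscle, was at least 18.7-fold higher, and Car8, a carbonic anhydrase relative without enzyme activity, at least 19.5-fold. Sncg, a synuclein of peripheral neurons, was 25.7-fold higher, and Emp1, an epithelial membrane protein, 23.8-fold. Arxes1, Pcdh18, a protocadherin, and Mamdc2 complete these 15 together with the embryonic globin gene Hbe1, and lay between at least 19.4-fold and at least 28.0-fold.

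The 15 largest differences on the adult side were spread over many kinds of gene. Abca4, a flippase that moves retinoids across membranes, had 36.7 and 30.8 units in the E19 pools and 3711 and 3522 units in the adult pools, which was at least 36.2-fold lower at E19. Adipoq, the gene of the hormone adiponectin, followed with 63.5 and 45.3 units against 3501 and 3616 units (at least 35.6-fold), and Cox8b, the subunit of cytochrome oxidase found in heart and skeletal muscle, with 34.8 and 29.1 units against 3416 and 3580 units (at least 35.0-fold). Abca4, Adipoq and Cox8b were near background at E19, still under 100 units in both P2 pools, and bright in the adult. Scgb1c1, a secretoglobin, was 34.7-fold lower at E19, and Cltrn, a chaperone of amino acid carriers related to angiotensin-converting enzyme, 28.3-fold. Pon1, an esterase carried on high-density lipoprotein, was at least 24.8-fold lower, and Ppp1r1b, the protein phosphatase inhibitor DARPP-32, at least 24.1-fold. Glycam1, a mucin-like secreted protein, was 24.5-fold lower and Slc6a20a, a carrier of proline, 21.5-fold. The remaining members of the 15 were Prlr and F5, which are described with the epithelium, Tgfb2, with the growth factors, and Pgbd5, C1qtnf3 and Gpnmb, which were 18.0-fold, 15.2-fold and 14.7-fold lower. At P2 all 15 genes lower at E19 were still under their adult intensity, as the plot of the largest differences shows.

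**Figure D2:**
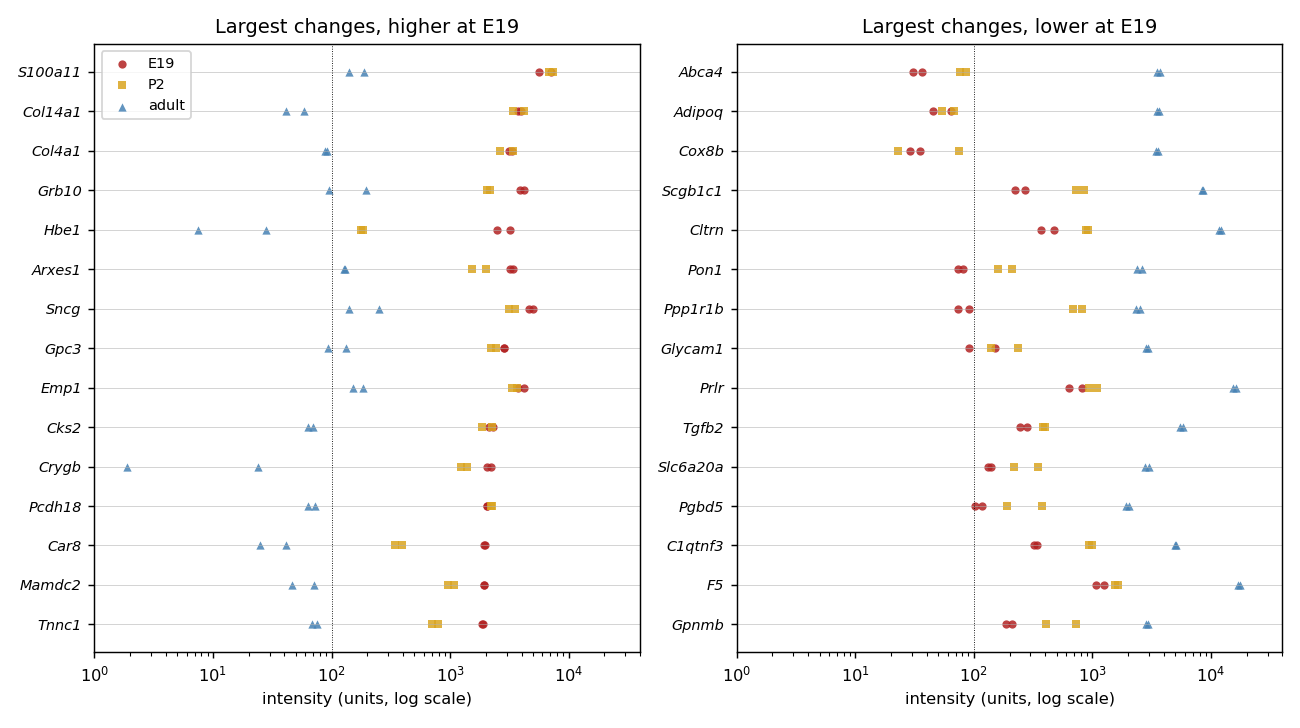
Intensity (horizontal axis, units, log scale) of the 15 genes with the largest increase (left) and the largest decrease (right) at E19 against the adult, outside the study's own gene list, with 1 point per pool and a dotted line at 100 units. The genes were chosen by size among called genes whose E19 and adult pools do not overlap. On the left, P2 pools lie mostly near the E19 pools, except for genes such as Hbe1, Car8 and Tnnc1. On the right, P2 pools of most genes lie between the E19 and the adult pools, as for Scgb1c1 and Ppp1r1b.

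Lists of marker and process genes give the differences a biological frame. Each list is described by how many of its tested members were called, which is to be read against the 31.7% and 25.8% of all genes, and by a median log2 difference, E19 minus adult. That median covers all members with a probe set, tested or not, with intensities under 100 units set to 100, and over all 14217 genes it was 0. The plot of list shares places mitosis, endothelium and DNA replication at the fetal end, and oligodendrocyte, cholesterol synthesis and citric acid cycle genes at the adult end.

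**Figure D3:**
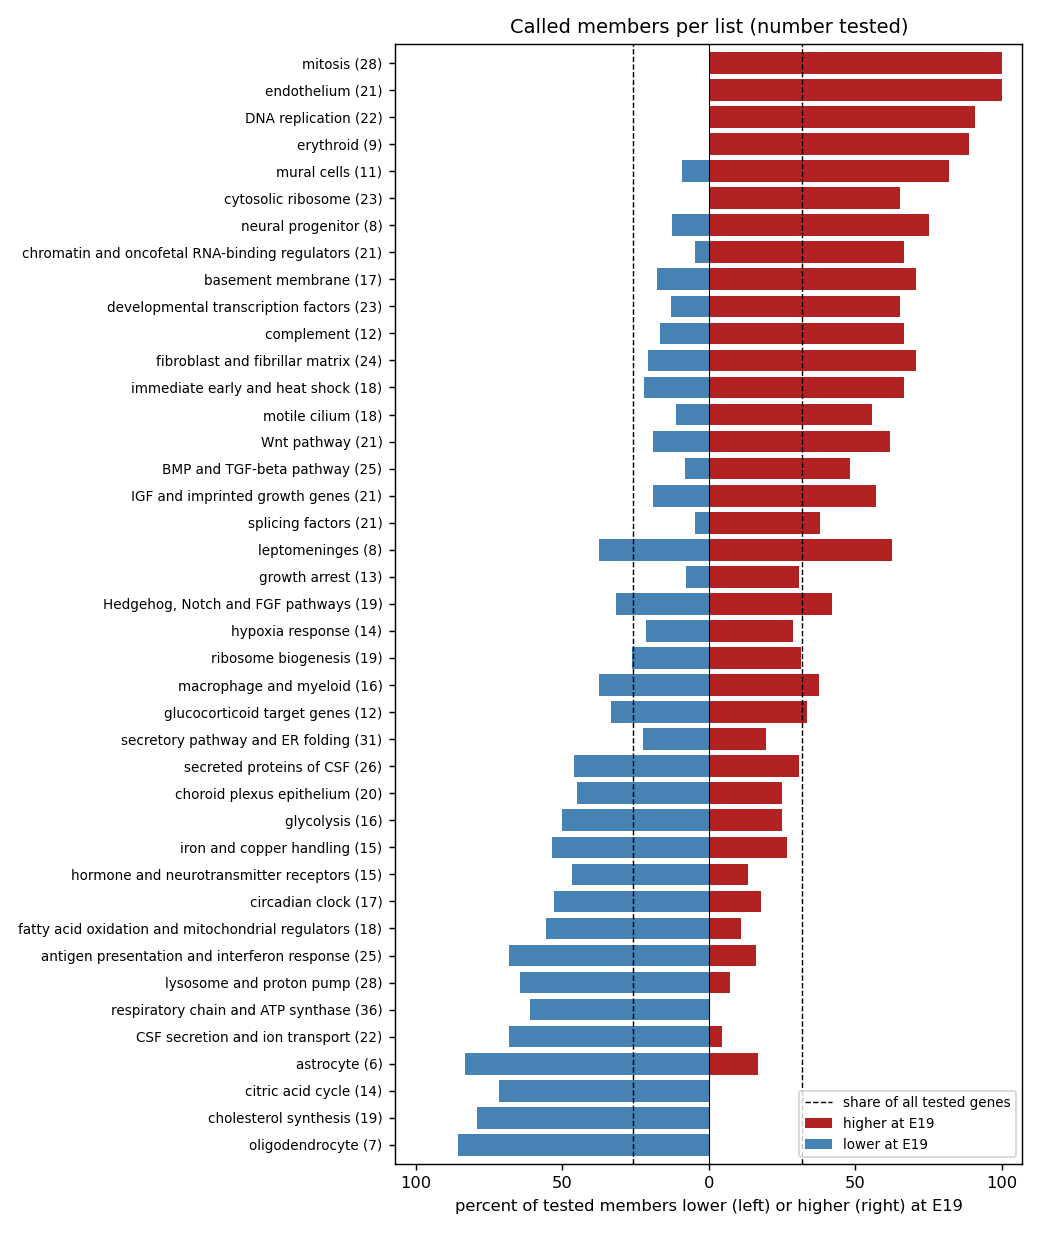
Share of the tested members of each list (number tested in brackets, lists with at least 6 tested members) that were higher (right, percent) or lower (left, percent) at E19 than in the adult, with dashed lines at the shares over all tested genes, 31.7% higher and 25.8% lower. All 28 mitosis and all 21 endothelium genes lie to the right, and 15 of 19 cholesterol synthesis genes lie to the left.

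Epithelial identity genes that differed at E19 were more often lower than higher. Of 25 listed markers 22 had a probe set and 20 were tested, of which 5 were higher, 9 lower and 6 not called, with a median log2 difference of -0.14. The shares were 25% higher and 45% lower, against 31.7% and 25.8% of all tested genes. Besides Ttr and Aqp1, Htr2c, the serotonin receptor of the plexus, Kcne2, a potassium channel subunit, Folr1, the folate receptor, and Calml4 did not pass the test, and their folds were 1.04 to 1.20. Under at least 1 other setting, Aqp1, Htr2c, Folr1 and Calml4 did pass. Prlr, the prolactin receptor, was the exception in size. Its intensities were 635 and 816 units at E19 and 15269 and 16148 units in the adult, all 3 of its probe sets were lower at E19, and the difference was 21.8-fold (log2 -4.45 ± 0.15 SE, limma adjusted p = 7.5e-05). F5, coagulation factor V, had 1071 and 1244 units against 17613 and 16746 units, 14.9-fold lower. Kl, which codes for klotho, the coreceptor of an endocrine fibroblast growth factor, was 3.38-fold lower, Trpv4, a cation channel gated by osmotic swelling, 2.38-fold, and the homeobox factor Msx1 2.13-fold. Enpp2, the secreted phospholipase autotaxin and among the brightest genes that differed, was 1.70-fold lower. On the fetal side, the simple epithelial keratin gene Krt8 was 1.75-fold higher and Cdh1, the epithelial cadherin, at least 2.70-fold. The count of higher markers went from 5 to 3 without E19 pool 1 or without E19 pool 2, since the calls of Krt18, Epcam and Otx2 each needed 1 or both of these pools.

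Every endothelial gene that could be tested was higher at E19. Of 25 listed markers 23 had a probe set and 21 were tested, and 21 of 21 were higher at E19, with a median log2 difference of 1.79. Emcn, a sialomucin of capillaries and veins, had 2314 and 2230 units in the E19 pools and 188 and 191 units in the adult pools (12.0-fold, limma adjusted p = 4.4e-05). Kdr, the main receptor of VEGF, had 4106 and 3920 units against 1050 and 1034 units, 3.85-fold, and Tek, the receptor of angiopoietin, was 6.38-fold higher. Plvap, the diaphragm protein of fenestrated capillaries, was 8.16-fold higher, Clec14a at least 11.4-fold and Ramp2, the coreceptor of adrenomedullin signalling, at least 9.21-fold. No E19 pool overlapped an adult pool for these genes, as was so for 83.3% of all tested genes. Summed over the 23 genes with a probe set, intensity was 17125 and 16337 units at E19 and 2979 and 2950 units in the adult. In whole tissue, fewer cells of a type and less RNA per cell cannot be told apart, here and for every other cell type below. Mural cells, the pericytes and smooth muscle of vessels, went the same way: 14 markers had a probe set, 11 were tested, and 9 were higher, 1 lower and 1 not called (median 0.59). Rgs5, a pericyte regulator of G protein signalling, had 1715 and 1688 units against 127 and 115 units, 14.1-fold, and the pericyte receptor gene Pdgfrb was 3.18-fold higher. The lower member was Myh11, the myosin of smooth muscle, with 217 and 180 units against 351 and 317 units, a call that was lost without E19 pool 2 or without either adult pool.

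**Figure D4:**
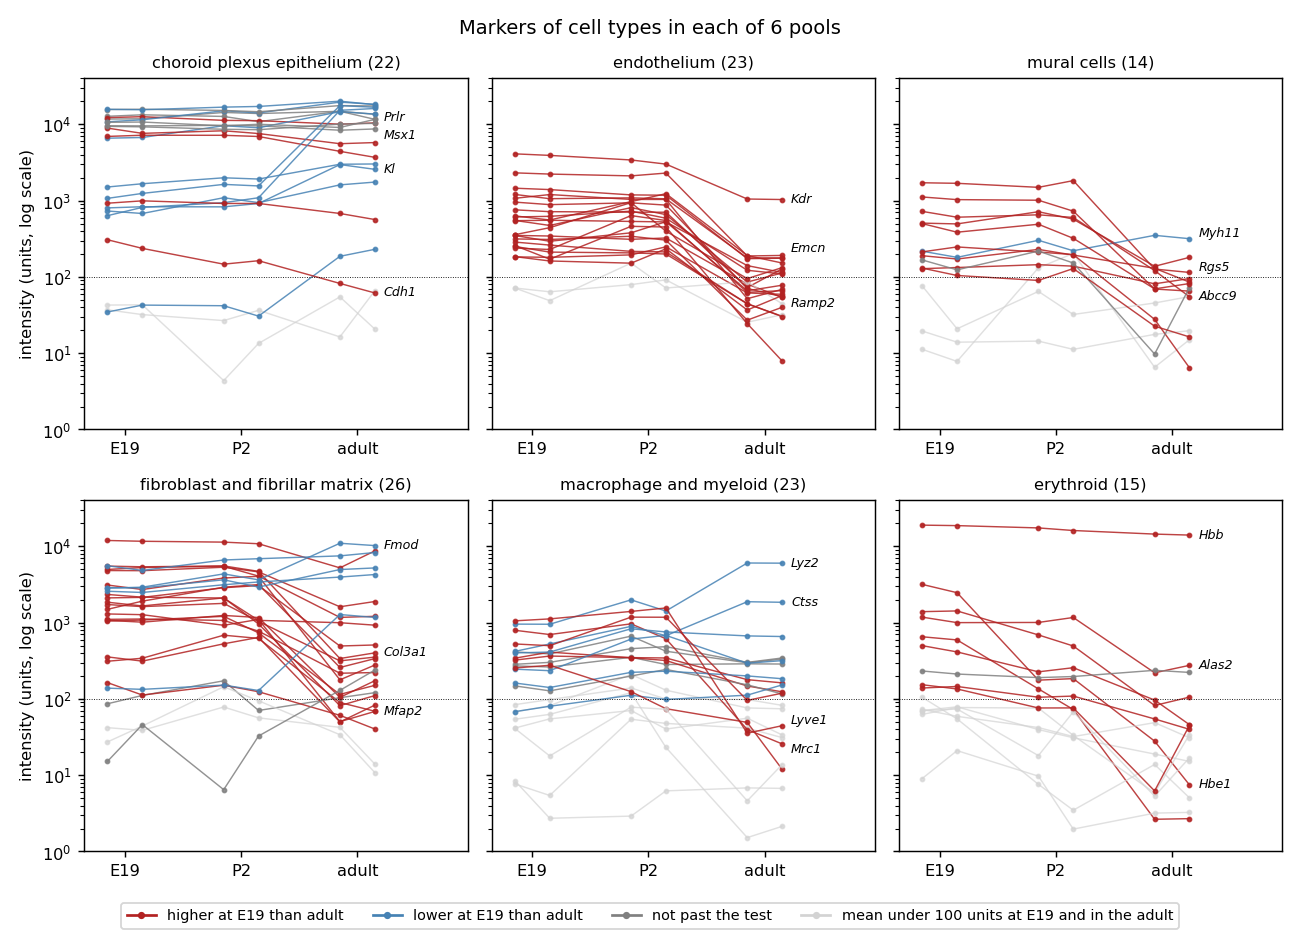
Intensity (vertical axes, units, log scale) of every marker with a probe set (number in brackets) in each of the 6 pools, 2 per stage, for 6 cell types, with lines that join the pools of a gene and a dotted line at 100 units. Most endothelial, mural and fibroblast markers drop between P2 and the adult, epithelial and macrophage markers go both ways, and Prlr rises while Cdh1 falls.

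Basement membranes lie under the epithelium and around the capillaries, and most of their genes were fetal. With 19 of 21 listed genes on the array, 17 were tested, of which 12 were higher, 3 lower and 2 not called (median 2.14). Col4a1 had 3333 and 3149 units at E19 and 88.7 and 91.8 units in the adult. Its partner chain Col4a2 was at least 9.61-fold higher, the crosslinking glycoprotein genes Nid1 and Nid2 were 14.8-fold and 5.57-fold higher, and Lama4, the laminin chain of vessels, was at least 14.8-fold higher. Lama2 and Lama3 went against this direction. Lama3, a laminin chain of epithelia, had 434 and 469 units at E19 and 1540 and 1621 units in the adult, 3.50-fold lower, and Lama2, a chain best known from muscle and nerve, was 2.33-fold lower. Lamb2 was 1.68-fold lower, a call that was lost without E19 pool 2.

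Fibroblast and fibrillar matrix genes were mostly higher at E19, with exceptions such as Fmod, Thbs2 and Pdgfra. All 26 listed genes had a probe set and 24 were tested, of which 17 were higher, 5 lower and 2 not called (median 1.58). The fibrillar collagen gene Col3a1 had 5506 and 5392 units at E19 and 338 and 401 units in the adult, 14.8-fold, and Col1a1 and Col1a2 were 8.11-fold and 4.30-fold higher. Lum, a keratan sulphate proteoglycan that spaces fibrils, was 13.1-fold higher and Fn1, fibronectin, 5.01-fold. Each of these lay above both adult pools in both E19 pools, and 83.3% of all tested genes had no overlap in either direction. Fmod, the fibril-binding relative of Lum, moved the opposite way, with 2832 and 2914 units at E19 and 10976 and 10234 units in the adult (3.69-fold lower). Thbs2, a matricellular thrombospondin, was 9-fold lower, and Pdgfra, the growth factor receptor of fibroblasts, 1.77-fold. The leptomeninges, which adjoin the plexus at its root, were represented by 8 tested genes of 12 with a probe set, 5 higher and 3 lower (median 0). Crabp2, a carrier of retinoic acid, was 2.85-fold higher, whereas Ptgds, the CSF protein prostaglandin D synthase, was 2.24-fold lower and Slc6a20a, named above, 21.5-fold. Without E19 pool 1 or E19 pool 2, 3 rather than 5 of them were higher.

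Macrophage genes were split. Of 24 listed markers 23 had a probe set, 16 were tested, and 6 were higher, 6 lower and 4 not called (median 0). Lyve1, a hyaluronan receptor, had 1055 and 1119 units in the E19 pools and 35.5 and 44.5 units in the adult pools, at least 10.9-fold higher. Mrc1, the mannose receptor, was at least 7.44-fold higher and Pf4, a chemokine of platelets and tissue macrophages, 4.80-fold. Lyz2, the lysozyme of myeloid cells, went the other way, with 956 and 952 units at E19 and 6048 and 6018 units in the adult, 6.32-fold lower, and the lysosomal protease gene Ctss was 3.97-fold lower. The general markers Csf1r and Aif1 had folds of 1.08 and 1.10 and adjusted p values of 0.49 and 0.31. Lyve1, Mrc1 and Pf4, which perivascular macrophages are known for, thus differed in the opposite direction to Lyz2 and Ctss, with the general markers in between. Without E19 pool 1, 3 rather than 6 of the markers were lower. Other blood and immune cells left few traces. Among neutrophil genes 2 of the 7 with a probe set were tested, and both S100a9, an alarmin subunit (430 and 460 units against 54.3 and 30.6 units), and S100a8 were higher, the latter only with both E19 pools. Of 9 mast cell genes with a probe set, Kit (96.0 and 117 units against 51.4 and 9.04 units) and Hdc (1186 and 1222 units against 1099 and 1223 units) were tested and did not pass, although Kit was called higher without either adult pool. Lymphocyte genes numbered 11 with a probe set and 1 tested, Lck, which was 1.36-fold higher, a call lost without E19 pool 1.

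Red cell transcripts marked the fetal pools. Erythroid genes numbered 15 with a probe set and 9 tested, of which 8 were higher and 1 was not called (median 0.40). Hbe1, an embryonic beta-like globin gene, had 3170 and 2468 units at E19, 176 and 185 units at P2 and 28.0 and 7.46 units in the adult. Its E19 pools stood at least 28.0-fold over the adult, and most of the intensity was gone by P2. Ahsp, the chaperone of alpha-globin, was 15.1-fold higher and Alas2, the first enzyme of haem synthesis in red cells, 4.41-fold. Hbb was bright at all stages, with 18966 and 18694 units against 14475 and 14045 units, and its 1.32-fold call was lost without either E19 pool or without adult pool 2. The plexuses were not described as perfused in the sources used here, and the part of circulating blood in these values was not tested.

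Brain tissue at the edge of the dissection was looked for through markers of neurons and glia. Of 22 neuronal genes with a probe set 18 were under 100 units at both stages, among them Tubb3, Syt1, Stmn2 and Dcx, and of the 4 tested, Bcl11b was higher and Snap25 lower. Neural progenitor genes numbered 13 with a probe set and 8 tested, of which 6 were higher, 1 lower and 1 not called (median 0.08). Prom1, a protein of microvilli and stem cell membranes, had 2029 and 2171 units against 179 and 174 units, 11.9-fold higher, and Nes, an intermediate filament of progenitors and of growing vessels, was at least 2.57-fold higher. Astrocyte genes numbered 8 with a probe set and 6 tested, 1 higher and 5 lower (median -0.95). Gja1, the gap junction protein connexin 43, which fibroblasts and meninges use too, had 7141 and 7104 units against 793 and 679 units, 9.71-fold higher. Gfap had 11.2 and 10.3 units at E19 and 175 and 112 units in the adult, at least 1.40-fold lower, a call lost when intensities under 100 units were set to 100, and Aqp4, the water channel of astrocyte endfeet, was 3.79-fold lower. Of 12 oligodendrocyte genes with a probe set 7 were tested, 6 lower and 1 not called (median -0.21). Mal, a myelin lipid raft protein, had 58.5 and 74.3 units against 403 and 311 units, at least 3.54-fold lower. Only 3 of them were lower without E19 pool 1 or without adult pool 1. Glial markers other than Gja1 were thus brighter in the adult pools where they were called, and their part in other genes lower at E19 was not tested.

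Motile cilia, which the plexus epithelium carries in tufts, were served by genes with small differences. Of 31 listed genes 19 had a probe set and 18 were tested, of which 10 were higher, 2 lower and 6 not called (median 0.31). Tppp3, a tubulin-binding protein of ciliated cells, was the only member past 4-fold, with 3198 and 3290 units at E19 and 279 and 236 units in the adult (12.6-fold). Ropn1l, a radial spoke protein, was 2.01-fold higher. Foxj1, the master regulator of motile cilia, had 6180 and 6569 units against 4798 and 4984 units, and its 1.3-fold call was lost without either E19 pool or adult pool 1. The count of higher genes went from 10 to 6 without E19 pool 1, to 3 without E19 pool 2, to 5 without either adult pool and to 2 with no filter on low intensity.

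Genes of the cell cycle were higher at E19 almost without exception. Mitosis genes numbered 28 with a probe set, and 28 of 28 were tested and higher (median 2.43), a count that did not fall by more than 1.5 times under any left-out array. Cdk1, the kinase that drives entry into mitosis, had 1707 and 1836 units in the E19 pools and 57.8 and 59.5 units in the adult pools (at least 17.7-fold, limma adjusted p = 4.4e-05). Its cyclin partner Ccnb2 had 1242 and 1413 units against 94.5 and 88.7 units, at least 13.2-fold, and Prc1, which bundles the microtubules of the spindle midzone, 1086 and 957 units against 167 and 154 units, 6.35-fold. Mki67, the proliferation marker, was at least 9.70-fold higher and Racgap1, a regulator of cytokinesis, at least 10.5-fold. In the adult, 18 of these genes lay under 100 units in both pools. The smallest difference among those with a fold was that of the spindle checkpoint gene Mad2l1, 1.54-fold. DNA replication genes numbered 23 with a probe set and 22 tested, and 20 were higher and 2 not called (median 0.84). Mcm6, a subunit of the replicative helicase, had 579 and 594 units against 46.8 and 45.3 units, at least 5.86-fold, and Mcm5, another subunit, 319 and 299 units against 45.9 and 78.9 units, at least 3.09-fold. Pcna, the sliding clamp, was 1.54-fold higher, and E2f1 and Ccne2 did not pass the test (281 and 209 units against 377 and 288 units, and 196 and 190 units against 178 and 205 units). The cell types in which these genes were transcribed cannot be told from whole tissue.

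Growth arrest genes were higher about as often as all tested genes, and lower less often. Of 16 with a probe set 13 were tested, and 4 were higher, 1 lower and 8 not called (median 0). The shares were 30.8% higher and 7.69% lower, against 31.7% and 25.8% of all tested genes. Cdkn1a, the inhibitor p21, had 958 and 974 units at E19 and 3414 and 4079 units in the adult, 3.86-fold lower, while Btg1, an antiproliferative transcription cofactor, was 1.91-fold higher and Rbl1, a pocket protein of the retinoblastoma family, 2.27-fold. Cdkn1c, the inhibitor p57, which is high in the plexus from early stages, had 13724 and 14384 units against 12934 and 12773 units and did not pass the test (1.09-fold). Without E19 pool 1, 2 rather than 4 of these genes were higher.

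The promoters of 3 mitosis and 2 replication genes are printed because these lists were called almost wholly in 1 direction and their promoters hold some short motifs more often than other promoters do. The sequences are the 250 bases before the transcript start from the RefSeq promoter table of GRCr8, written 5′ to 3′ on the strand of the gene. Capitals mark the CCAAT box (CCAAT) and the CHR element (TTTGAA or TTCGAA) in the mitosis genes, and E2F sites (TTTCGCGC, TTTGGCGC or TTTCCCGC) in the replication genes, on either strand. The regions are chr20:19265043-19265292 on the plus strand for Cdk1, chr8:79981659-79981908 on the minus strand for Ccnb2, chr1:143659231-143659480 on the plus strand for Prc1, chr19:13488563-13488812 on the plus strand for Mcm5 and chr13:42404353-42404602 on the minus strand for Mcm6.
Cdk1: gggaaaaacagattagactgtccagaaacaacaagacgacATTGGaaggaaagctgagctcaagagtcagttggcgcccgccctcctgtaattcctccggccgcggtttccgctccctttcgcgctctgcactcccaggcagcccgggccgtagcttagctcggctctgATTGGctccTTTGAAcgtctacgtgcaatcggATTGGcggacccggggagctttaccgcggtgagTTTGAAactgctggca
Ccnb2: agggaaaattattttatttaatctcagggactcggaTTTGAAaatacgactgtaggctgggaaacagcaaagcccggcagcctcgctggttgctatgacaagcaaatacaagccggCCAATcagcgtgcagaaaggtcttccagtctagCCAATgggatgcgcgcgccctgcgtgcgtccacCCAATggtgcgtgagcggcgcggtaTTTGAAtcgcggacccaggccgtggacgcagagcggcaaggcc
Prc1: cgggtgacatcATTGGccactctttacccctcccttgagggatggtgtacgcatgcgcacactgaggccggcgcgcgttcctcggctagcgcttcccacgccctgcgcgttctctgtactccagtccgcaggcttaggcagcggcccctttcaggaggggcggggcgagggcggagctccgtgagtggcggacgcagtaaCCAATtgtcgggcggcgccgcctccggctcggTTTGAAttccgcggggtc
Mcm5: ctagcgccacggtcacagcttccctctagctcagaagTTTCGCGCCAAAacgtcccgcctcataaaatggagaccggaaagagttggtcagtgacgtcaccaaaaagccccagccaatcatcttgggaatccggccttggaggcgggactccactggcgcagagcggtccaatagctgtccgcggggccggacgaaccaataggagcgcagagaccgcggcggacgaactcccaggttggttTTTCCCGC
Mcm6: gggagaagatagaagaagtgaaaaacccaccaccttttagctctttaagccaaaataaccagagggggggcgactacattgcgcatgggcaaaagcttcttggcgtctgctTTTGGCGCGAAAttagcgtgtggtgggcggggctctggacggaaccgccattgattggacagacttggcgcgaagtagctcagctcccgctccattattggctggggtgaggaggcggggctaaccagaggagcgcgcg

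Matches were counted over the 300 bases from 250 before to 50 after the start. In Cdk1 the CCAAT boxes begin at -210, -81 and -49 from the start and the CHR elements at -72 and -16, so that a box and an element stand close together near the start. Ccnb2 has 3 boxes (-134, -101 and -68) and 2 elements (-214 and -43), and Prc1 has 2 boxes (-239 and -50) and 1 element (-18). In Mcm5 an overlapping pair of E2F sites begins at -213 and -209 and another site at -8, and in Mcm6 an overlapping pair begins at -139 and -135. Of 28 mitosis genes 23 had a promoter of full length in the table, and 65.2% of these held both a CCAAT box and a CHR element, against 5.61% of 8544 tested genes and 7.83% of all 27457 promoters. Alone, the CCAAT box was in 78.3% of them (38.1% of tested genes and 37.7% of all promoters) and the CHR element in 73.9% (13% and 19.5%). Of 20 replication genes with a promoter 50% held an E2F site, against 3.63% of tested genes and 1.82% of all promoters. Among the 2685 genes higher at E19 with a promoter, 6.44% held both a CCAAT box and a CHR element and 4.88% an E2F site. The high shares thus belong to these 2 lists and not to the genes higher at E19 as a whole. The shares are descriptions of letters in these windows and not of binding.

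Chromatin regulators and oncofetal RNA-binding proteins, which are typical of fetal tissue, were higher at E19. Of 25 genes with a probe set 21 were tested, of which 14 were higher, 1 lower and 6 not called (median 0.59). Igf2bp2, a binding protein of IGF2 mRNA, had 2268 and 2102 units against 150 and 172 units, 13.6-fold, and its relatives Igf2bp3 (407 and 499 units against 22 and 11.3 units) and Igf2bp1 were at least 4.51-fold and at least 1.51-fold higher. Lmnb1, the lamin of growing and dividing cells, was 9.89-fold higher, whereas Lmna, the lamin of differentiated cells, was the lower member (1.95-fold). Dnmt3a, which writes new DNA methylation, was 5.27-fold higher and Ezh2, the methyltransferase of the Polycomb complex PRC2, 3.68-fold. Its partners Eed and Suz12 did not pass the test, with folds of 1.08 and 1.18. Hmga2 and Lin28a, the classical oncofetal genes, stayed under 100 units at both stages.

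Imprinted genes and the IGF system control fetal growth. The list had 24 genes with a probe set and 21 tested, of which 12 were higher, 4 lower and 5 not called (median 0.57). H19, the maternally expressed noncoding RNA, had 1638 and 1379 units against 62.6 and 42.7 units, at least 15-fold higher, and Mest, a paternally expressed hydrolase gene, 7879 and 8055 units against 986 and 962 units, 8.18-fold. Plagl1, a zinc finger regulator of this gene network, was 3.02-fold higher, and Igf1 3.57-fold. Igf2 itself did not follow: its intensities were 13696 and 12819 units at E19 and 17207 and 16266 units in the adult, 1.26-fold lower, a call lost without either E19 pool or adult pool 1. Igfbp3 was 11.9-fold higher, while Igfbp2, the main IGF-binding protein of CSF, had 17421 and 18703 units against 21065 and 18207 units and did not pass the test. The insulin receptor gene Insr was 3.09-fold lower. Without either E19 pool or without adult pool 1, 2 rather than 4 of the list were lower.

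**Figure D5:**
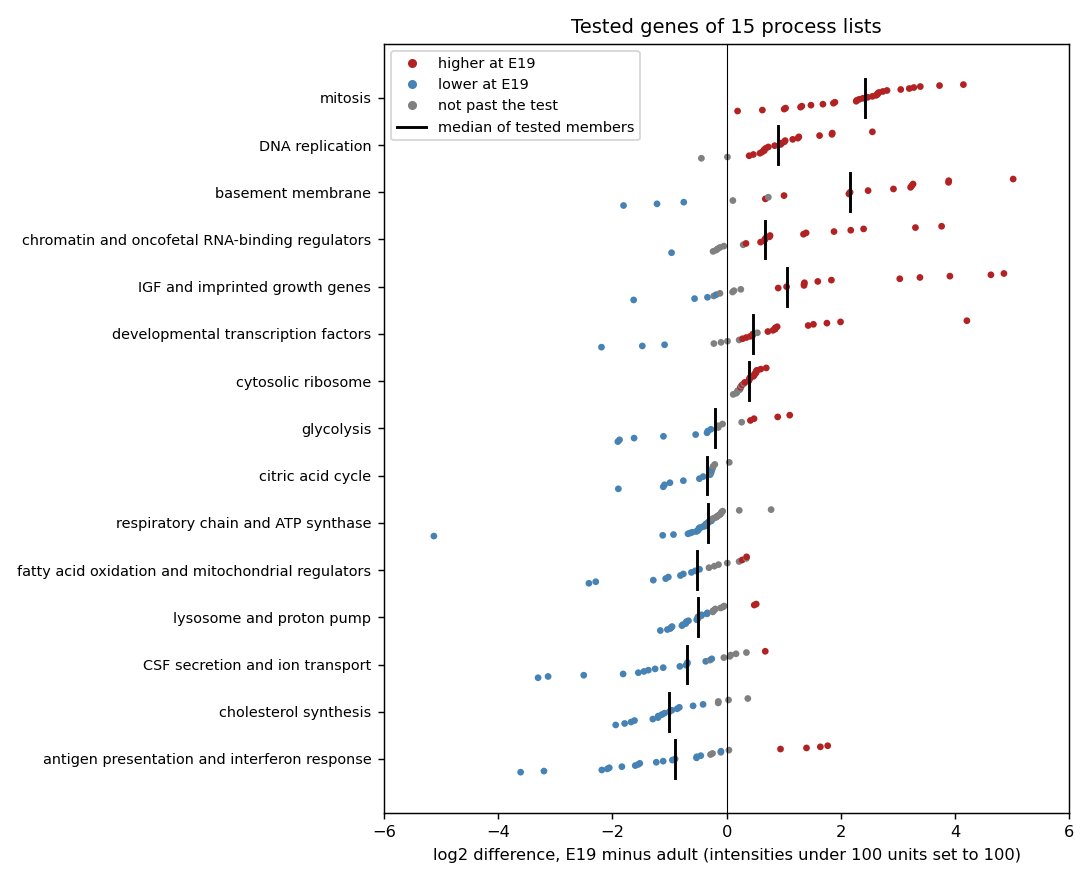
Log2 difference, E19 minus adult (horizontal axis, intensities under 100 units set to 100), of every tested gene of 15 process lists, coloured by the limma call, with the median of the tested genes of each list as a black bar. Mitosis genes lie to the right of 0 throughout, most respiratory chain and citric acid cycle genes lie within 1 unit to the left of it, and Cox8b stands alone at the far left.

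Signalling genes of development were called in both directions. In the BMP and TGF-beta pathway, 31 genes had a probe set and 25 were tested, of which 12 were higher, 2 lower and 11 not called (median 0.18). Tgfb2, a ligand, had 243 and 281 units at E19 and 5479 and 5777 units in the adult, 21.5-fold lower, and the ligand gene Bmp2 was at least 5.13-fold lower. Nog, the secreted antagonist noggin, went the other way, with 450 and 435 units against 36.2 and 38.3 units (at least 4.42-fold). The ligands Bmp4 and Bmp7 did not pass the test, with folds of 1.18 and 1.23. In the Wnt pathway, 32 genes had a probe set and 21 were tested, of which 13 were higher, 4 lower and 4 not called (median 0.19). Fzd1, a Wnt receptor, had 4271 and 3798 units against 331 and 346 units, 11.9-fold, and the nuclear effectors Tcf7 and Lef1 were 4.10-fold and at least 4.21-fold higher. Dkk3, a secreted relative of the Wnt inhibitors, was 6.29-fold lower. Without adult pool 2, 2 rather than 4 Wnt genes were lower. Hedgehog, Notch and FGF genes numbered 30 with a probe set and 19 tested, with 8 higher, 6 lower and 5 not called (median 0). Notch1 and its ligand gene Jag1 were 5.32-fold and 3.77-fold higher, and Gli2, an effector of hedgehog signals, 2.70-fold. The growth factor gene Fgf1 was 3.66-fold lower, with 777 and 765 units against 2926 and 2718 units. Without E19 pool 2, 3 rather than 6 were lower.

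Transcription factors of development were higher more often than lower. Of 35 with a probe set 23 were tested, of which 15 were higher, 3 lower and 5 not called (median 0.01). Ets1, a factor of endothelium and other stromal lineages, had 2104 and 1979 units against 90.0 and 122 units, 19.5-fold. Zic4, a zinc finger factor of the dorsal midline, was 2.69-fold higher, Nr2f2, a nuclear receptor of veins and stroma, 1.80-fold, and Irx3 at least 3.98-fold. Otx2, which the plexus needs for its formation, had 12251 and 12608 units against 10059 and 10449 units, a 1.21-fold call that was lost without any single array of the 6. The lower members were Klf9, which thyroid hormone and glucocorticoids induce (609 and 689 units against 3061 and 2866 units, 4.57-fold), Nfix (2.79-fold) and Msx1.

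The machinery of CSF secretion was lower at E19. Of 25 genes with a probe set 22 were tested, of which 15 were lower, 1 higher and 6 not called (median -0.69), and the count of lower genes moved by less than 1.5 times without any of the arrays. Atp1b2, a beta subunit of the sodium pump, had 378 and 331 units against 3027 and 3156 units, 8.74-fold lower, and Atp1b1, the main beta subunit, 5558 and 5728 units against 16571 and 16423 units, 2.92-fold. Slc4a10, the basolateral sodium bicarbonate carrier, had 2014 and 1986 units against 10629 and 12100 units, 5.67-fold, and Slc4a2, the basolateral anion exchanger, was 2.73-fold lower. Slc12a2, the sodium potassium chloride cotransporter, was 1.62-fold lower. Kcna1, a voltage-gated potassium channel, was near 0 at E19 (2.12 and 2.72 units) and had 923 and 1056 units in the adult, at least 9.87-fold. Both E19 pools were below both adult pools for these carriers and pumps, where 83.3% of all tested genes had no overlap in either direction. Aqp1 and Kcne2 did not pass the test, nor did the kinases Stk39 (1.05-fold) and Oxsr1 (1.03-fold) that regulate the cotransporters. The higher member was Slc4a7, another bicarbonate carrier, 1.6-fold.

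Proteins that the plexus secretes into CSF were divided. Of 28 with a probe set 26 were tested, of which 8 were higher, 12 lower and 6 not called (median -0.16). The share higher, 30.8%, was near the 31.7% of all tested genes, and the share lower was 46.2% against 25.8%. Ptn, the growth factor pleiotrophin, had 2703 and 2815 units against 307 and 338 units, 8.57-fold higher, while its only relative Mdk, midkine, had 9846 and 9455 units against 19478 and 18593 units, 1.97-fold lower. Timp1, an inhibitor of matrix proteases, was 8.30-fold higher and Timp2 1.82-fold lower. Both families thus held members of opposite direction. Apoe was 2.12-fold higher and Serpinf1, a factor against vessel growth, 4.79-fold. Gas6, a ligand of receptor tyrosine kinases, was 2.80-fold lower by its brightest probe set, although 1 of its other probe sets was higher. Clu and Cst3, among the most abundant secreted products, did not pass the test (1.10-fold and 1.14-fold). Without E19 pool 2, 5 rather than 8 were higher.

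Receptors of hormones and transmitters numbered 33 with a probe set, of which only 15 were tested, 2 higher, 7 lower and 6 not called (median 0). Agtr1a, a receptor of angiotensin II, had 781 and 733 units against 11.8 and 7.02 units, at least 7.56-fold higher. Lepr, the leptin receptor, was 3.71-fold lower, with 250 and 284 units against 1063 and 923 units and all 4 of its probe sets lower. Thra, a thyroid hormone receptor, was 2.50-fold lower and Nr3c2, the mineralocorticoid receptor, 2.59-fold. The other higher member, Adra2a, an adrenergic receptor, had 104 and 146 units against 32.8 and 45.8 units, a call lost when intensities under 100 units were set to 100. Prlr and Insr, given with the epithelium and the growth genes, were among the lower members too.

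Mitochondrial genes were lower at E19 by small amounts. Respiratory chain and ATP synthase genes numbered 38 with a probe set and 36 tested, of which 22 were lower and 14 not called (median -0.32). Cox8b was the outlier, as given above, and Sdha, the flavoprotein of succinate dehydrogenase, came next with 2610 and 2751 units against 5577 and 6086 units, 2.17-fold. Ndufs1, a subunit of complex I, was 1.91-fold lower. The count of 22 went to 11 without E19 pool 1, 12 without E19 pool 2, 13 without adult pool 1 and 9 with no filter on low intensity. Citric acid cycle genes numbered 14, all tested, with 10 lower and 4 not called (median -0.35), which fell to 6 without E19 pool 1, 5 without E19 pool 2 and 6 with no filter. Pdk2, a kinase that restrains pyruvate dehydrogenase, was 3.73-fold lower, and Pdha1, its target, 2.16-fold. Fatty acid oxidation genes and mitochondrial regulators numbered 18, all tested, with 10 lower, 2 higher and 6 not called (median -0.51). The nuclear receptors Esrrg (718 and 836 units against 4096 and 4158 units) and Esrra (283 and 291 units against 1303 and 1517 units) were 5.33-fold and 4.90-fold lower, and their coactivator gene Ppargc1a 2.10-fold, in all 3 of its probe sets. The 2 higher members, Tfam and Acadl, lost their calls without any of the E19 or adult pools.

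Glycolysis genes did not share 1 direction. Of 17 with a probe set 16 were tested, of which 4 were higher, 8 lower and 4 not called (median -0.15). Slc2a1, the glucose carrier, had 3018 and 3242 units against 1781 and 1591 units, 1.86-fold higher, and Slc16a3, which exports lactate, was 2.15-fold higher. Slc16a1, the monocarboxylate carrier with affinity for uptake, was 3.08-fold lower, and Pfkm and Pfkp, phosphofructokinase isoforms, were 3.75-fold and 3.67-fold lower. Without E19 pool 1, 2 rather than 4 were higher and 5 rather than 8 lower, and without E19 pool 2 or adult pool 1 the lower count was also 5.

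Cholesterol synthesis genes formed a block on the adult side. All 19 with a probe set were tested, and 15 were lower and 4 not called (median -1.0), a count of lower genes that no left-out array moved by 1.5 times. Idi1, the isomerase that makes the activated isoprene units, had 1678 and 1542 units against 5837 and 6558 units, 3.85-fold lower, and Cyp51, the lanosterol demethylase, 703 and 771 units against 2563 and 2519 units, 3.45-fold. Fdft1, the first committed enzyme, was 2.45-fold lower, and Srebf2, the transcription factor of the pathway, 1.5-fold. Sqle and Dhcr7, an early and a late enzyme, did not pass the test (2512 and 2566 units against 2669 and 2309 units, and 768 and 734 units against 623 and 541 units), although Dhcr7 was called higher without either P2 pool. Of 15 genes with a promoter in the table, 86.7% held a CCAAT box against 38.1% of tested genes and 37.7% of all promoters, and 0 held the letters TCACNCCAC of a sterol regulatory element, which 1.11% of tested genes and 1.13% of all promoters hold.

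Lysosomal genes were lower and ribosomal genes higher at E19, both by less than 2-fold in most cases. Of 28 lysosome and proton pump genes, all tested, 18 were lower, 2 higher and 8 not called (median -0.50). Ppt1, a thioesterase, was 2.24-fold lower, with 1952 and 1912 units against 4315 and 4335 units, Ctsa, a protective carboxypeptidase, 1.98-fold, and Atp6v0e1, a subunit of the proton pump, 2.05-fold. Ctsl, a cathepsin, was 1.43-fold higher, and without E19 pool 2 or adult pool 1 the list had 1 rather than 2 higher members. Cytosolic ribosome genes numbered 24 with a probe set and 23 tested, of which 15 were higher and 8 not called (median 0.35). Rplp0, a stalk protein, had 12673 and 13268 units against 8219 and 7829 units, 1.62-fold. Without either E19 pool, or with no filter, 6 rather than 15 were higher. Ribosome biogenesis genes numbered 19, all tested, with 6 higher, 5 lower and 8 not called (median 0.23). These shares, 31.6% and 26.3%, were near the 31.7% and 25.8% of all tested genes. Nop58, a core protein of the box C/D small nucleolar particles, was 2.25-fold higher. The count of higher biogenesis genes was 3 without E19 pool 1, and that of lower ones was 2 without either E19 pool and 1 without adult pool 1. Splicing factors numbered 23 with a probe set and 21 tested, of which 8 were higher, 1 lower and 12 not called (median 0.11). Hnrnpd, which binds AU-rich mRNA, was 1.98-fold higher and Mbnl1, a regulator of the switch to adult splice forms, 1.40-fold lower, a call lost without E19 pool 2. Without E19 pool 1, 5 rather than 8 splicing factors were higher.

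Secretory pathway and endoplasmic reticulum genes were near the background or under it. All 31 were tested, and 6 were higher, 7 lower and 18 not called (median -0.10). Ssr2 and Sec61b, parts of the translocon, were 1.83-fold and 1.80-fold higher, whereas the stress-responsive Herpud1 was 2.58-fold lower and Hspa5, the chaperone BiP, 1.43-fold, with 12505 and 11822 units against 17359 and 17481 units. The counts were 3 higher without either E19 pool and 4 lower without E19 pool 2.

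Most antigen presentation genes were lower at E19. Antigen presentation and interferon response genes numbered 30 with a probe set and 25 tested, of which 17 were lower, 4 higher and 4 not called (median -0.49). Cd74, the invariant chain of MHC class II, had 105 and 177 units in the E19 pools and 1556 and 1771 units in the adult pools, 12.2-fold lower, and RT1-Da, a class II chain, 88.8 and 111 units against 983 and 954 units, 9.75-fold. B2m, the light chain of class I, was 1.87-fold lower, with 8524 and 8269 units against 15387 and 16023 units, and RT1-CE5, a class I heavy chain whose probe sets may also bind related class I transcripts, 4.26-fold. The peptide transporter gene Tap2 (2.87-fold) and the immunoproteasome gene Psmb9 (2.16-fold) were lower as well. Isg15, an interferon-induced ubiquitin-like protein, had 20 and 37.5 units against 400 and 432 units, at least 4.16-fold lower. Other interferon-induced genes went the opposite way. Ifi27 was 3.41-fold higher at E19, with 1451 and 1444 units against 433 and 416 units, and Ifitm3, an antiviral membrane protein that fetal cells make without infection, 3.12-fold, while Rsad2 was 2.64-fold higher. The macrophage genes Lyz2 and Ctss given above moved with the class II genes, and their part in these values was not tested.

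The promoters of B2m and Tap2 are shown because members of this list share an interferon response element, spelled GAAA, any 2 bases and GAAA again, which stands in capitals. They lie at chr3:129549080-129549329 on the plus strand and chr20:4652297-4652546 on the minus strand of GRCr8, and the 250 bases before the start are written as for the cell cycle genes.
B2m: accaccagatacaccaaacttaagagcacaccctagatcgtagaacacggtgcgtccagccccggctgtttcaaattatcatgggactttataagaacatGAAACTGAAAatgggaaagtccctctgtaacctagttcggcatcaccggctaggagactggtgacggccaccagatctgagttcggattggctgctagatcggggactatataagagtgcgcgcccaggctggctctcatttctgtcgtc
Tap2: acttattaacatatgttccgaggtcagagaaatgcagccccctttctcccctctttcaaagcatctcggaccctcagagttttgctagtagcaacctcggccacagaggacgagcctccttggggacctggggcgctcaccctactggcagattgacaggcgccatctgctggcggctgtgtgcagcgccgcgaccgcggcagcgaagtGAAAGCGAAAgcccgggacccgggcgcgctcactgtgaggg

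The element begins at -150 in B2m and at -41 in Tap2. Of 24 genes of the list with a promoter of full length 54.2% held it, against 2.75% of the tested genes and 3.77% of all promoters. Holders of this element lay on both sides of the comparison, since Ifi27, Ifitm3 and Rsad2, which were higher at E19, held it too.

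Complement genes were mostly higher at E19. Of 15 with a probe set 12 were tested, of which 8 were higher, 2 lower and 2 not called (median 0.25). C1s, a protease of the first component, had 1585 and 1622 units against 287 and 394 units, 4.77-fold, and C1r, its partner, was 1.58-fold higher. C3, the central component, had 16.7 and 38.4 units against 496 and 561 units, at least 5.28-fold lower, and Cd59b, an inhibitor of the terminal complex, was 1.37-fold lower. Early proteases and C3 thus lay on opposite sides.

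Clock genes were called in both directions. Of 18 with a probe set 17 were tested, of which 3 were higher, 9 lower and 5 not called (median -0.17). Nr1d1, a repressor of the loop, had 74.5 and 114 units against 337 and 502 units, 4.46-fold lower, Npas2 was 3.0-fold and Clock 2.31-fold lower, and Nfil3, which competes with the output factors, was 3.70-fold higher. The hour of dissection is not given in the sources used here, and its part was not tested. Without E19 pool 1 the counts were 1 higher and 5 lower, without E19 pool 2 5 lower, and without adult pool 1 1 higher. Glucocorticoid target genes went both ways, with 12 tested of 14 with a probe set, 4 higher, 4 lower and 4 not called (median 0.16). Each share was 33.3%, against 31.7% higher and 25.8% lower of all tested genes. Mt2A, a metallothionein, had 1248 and 1203 units against 259 and 229 units, 5.03-fold higher, and Tsc22d3, known as GILZ, was 2.50-fold and Fkbp5, a cochaperone of the receptor, 2.25-fold higher. Sgk1, a kinase of ion transport that the mineralocorticoid receptor also induces, was 3.06-fold lower with 2157 and 1893 units against 6464 and 5928 units, and Klf9 was lower as given above.

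Immediate early and heat shock genes, which share 1 list, were called in both directions and more often higher at E19. Of 23 with a probe set 18 were tested, of which 12 were higher, 4 lower and 2 not called (median 0.99). Klf2, a factor that blood flow induces in endothelium, had 875 and 896 units against 101 and 130 units, 7.70-fold, although only 1 of its 2 tested probe sets was called. Klf4, a factor of epithelia and vessels, was 5.84-fold higher, Egr1 4.05-fold, Fos 3.80-fold and Jun 2.98-fold. The lower members were the heat shock protein genes Hsph1 (2.43-fold) and Hspa1a (2.31-fold), the early gene Nr4a1, which codes for an orphan nuclear receptor (at least 2.14-fold), and Zfp36, which codes for a protein that destabilizes mRNA (1.42-fold). By the study's methods fetuses were taken from anaesthetized dams, while how adults were killed is not given in the sources used here, and handling cannot be told apart from age.

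Iron and copper genes leaned to the adult by number. Of 17 with a probe set 15 were tested, of which 4 were higher, 8 lower and 3 not called (median -0.11). Heph, a copper oxidase that loads iron onto its carrier, had 1304 and 1396 units against 206 and 234 units, 6.14-fold higher, and Slc40a1, the iron exporter ferroportin, was 2.50-fold higher. Hfe, a regulator of iron uptake, was 3.57-fold lower and Tfrc, the transferrin receptor, 2.07-fold. Without E19 pool 2, 4 rather than 8 were lower, and without adult pool 2, 5. Hypoxia response genes numbered 16 with a probe set and 14 tested, with 4 higher, 3 lower and 7 not called (median 0.02). These shares, 28.6% and 21.4%, were near the 31.7% and 25.8% of all tested genes. Ndrg1, a stress-responsive gene of differentiation, had 880 and 918 units against 138 and 108 units, 7.35-fold higher, and Car9, the extracellular carbonic anhydrase that hypoxia induces, was 3.59-fold higher, whereas Vegfa did not pass the test (1.14-fold). Of the 3 lower calls 1 was left without E19 pool 1, and all were lost without E19 pool 2 or adult pool 2.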

How the data were processed

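Lateral ventricle choroid plexus of Sprague-Dawley rats was hybridized to 6 Affymetrix arrays, 1 for each of 2 pools at E19, P2 and adult age. The authors deposited intensities from Affymetrix Expression Console (MAS5; versions not given in the sources used here), after amplifying 100 ng of RNA by a 3′ method. Values are linear and scaled per array. The deposited values covered 31099 probe sets, and 57 controls among them were left out. For arrays the number of pools, not depth, limits the precision. The p-values set a difference against the spread between pools, estimated over all stages together and moderated across probe sets. The spread between single animals was not measured.

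Probe sets whose mean reached 100 units at E19 or in the adult were tested on the log2 scale. The linear model (limma 3.58.1, R 4.3.3) gave each stage 1 mean and used all 6 arrays, with 3 residual and 2.21 prior degrees of freedom. Every p is from the contrast of E19 against adult in limma, adjusted by Benjamini and Hochberg over 17501 probe sets, and values under 0.05 were called. The labels do not say what the replicate numbers stand for, and the main model did not use them.

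Genes were named by the array's annotation and RefSeq (GRCr8). Of all probe sets 20832 matched 1 gene, 436 several and 9831 none, and 3969 tested ones had no single gene. A gene was represented by its brightest probe set. Of 1456 called genes with several tested probe sets 57 had one called the other way. A fold is a bound against 100 units where both pools of the lower stage were under that level. The 46 lists, 14 of cell types and 32 of processes, and the genes were chosen with earlier results of these data known. Named were, per direction, the 15 largest bounded changes outside the genes the study names, among called genes without overlap of the stages. The rule also took the 5 brightest called genes per direction, of which only Hbb and Enpp2 are described. Of each list the rule took the 4 largest differences, the brightest tested member, and members whose role or absence is the point described. Not all of the list members it took are described. In simulated arrays of this layout, with 17501 probe sets, only 50 probe sets were changed at each fold. The share of changes recovered was 8% at 1.5-fold, 68% at 2-fold, 96% at 4-fold and 98% at 8-fold. Among 143 calls 8 were false. In the real data 9743 probe sets were called, and the adjustment is less strict where many probe sets change. The simulated shares therefore do not give the recovery or the false calls of this comparison. Alternatives were other filters, scalings, variance models and thresholds, a replicate block, and leaving out each array.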

Additional observations from a re-analysis of the deposited data

How the results depend on the processing

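At an adjusted p under 0.01 the counts were 3501 probe sets higher and 2651 lower at E19, and with at least 2-fold added at 0.05 they were 2438 and 1399, against 5395 and 4348. Leaving out 1 array at a time gave 3660 to 5200 higher and 2946 to 4248 lower. A lone array was then assumed to vary like the others. Of the calls 67.6% were kept without E19 pool 1 and 66.4% without E19 pool 2. Quantile normalization moved the median difference by -0.10 and gave 4851 higher and 5026 lower, so that the share of higher calls was 49.1% rather than 55.4%, and 47.3% with each array centred on its median. With no filter the counts were 4038 and 2997. The replicate block gave 5044 and 3982 and kept 90.4% of the calls, ending those of Acadl and Otx2 among the named genes. The differences between pool 1 and pool 2 had correlations of -0.05, -0.04 and 0.005 between stages. With only 1 such difference per stage, these values cannot tell whether pools of the same number shared a batch. Of 243 tested genes that the text names, 218 kept their side of the threshold under all of 17 settings. Of the others 17 lost a call under at least 1 setting, 14 of them without an E19 pool, and 8 gained one (Aqp1, Calml4, Dhcr7, E2f1, Folr1, Htr2c, Kit and Stk39). None of the 243 changed direction where it was called, as reported or under the other setting. Small differences of genes that were not called did change sign when single arrays were left out. The log2 difference then ranged from -0.19 to 0.16 for Ttr, from -0.12 to 0.23 for Kcne2 and from -0.07 to 0.14 for Sqle. With 2 pools per stage, differences under 2-fold that did not pass the test cannot be called absent.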

Other observations

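Adiponectin was among the largest adult increases, and other genes of fat cells were looked up after its values had been seen. Fabp4, Plin1, Lep, Ucp1, Cidec and Pparg, 6 genes that fat cells are known for, were at no more than 88.7 units on any of the 6 arrays. Cfd, the complement protease adipsin, was higher rather than lower at E19, with 191 and 183 units against 15.6 and 3.97 units. Lpl, lipoprotein lipase, had 6984 and 6952 units at E19 and 7129 and 7318 units in the adult and did not pass the test (limma adjusted p = 0.62).

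The lens gene Crygb was set beside other crystallins in the same way. Cryab, a small heat shock protein of many tissues, was lower at E19, with 854 and 875 units against 1624 and 1397 units. Cryaa, the crystallin of the lens proper, had 101 and 91.4 units at E19 and 18.7 and 20 units in the adult, and was not tested because its stage means stayed under 100 units.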
